A study of Mus musculus with 8 samples.

Results

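Genes that mark the bipolar, amacrine and horizontal cells of the retina were followed in retina RNA from mice with choroidal neovascularization, with and without PD-L1. The members are 33 genes, taken by symbol from a list of known cell class markers: 16 for bipolar, 12 for amacrine and 5 for horizontal cells, out of 25477 genes in the count table. All 33 had a row, and all 33 passed the filter on low counts, which kept 16861 genes. Polyadenylated RNA of mouse retina was sequenced in 8 samples, 4 from PD-L1 knockout mice (knockouts 1 to 4) and 4 from mice whose genotype the labels call control (controls 1 to 4, with WT in their titles). Every sample title carries CNV, choroidal neovascularization, in which vessels of the choroid grow under the retina, so both groups share that condition, and no retina without it is analysed here. The sources used here give no strain or age, nor the deleted part of the gene, nor how and when lesions were induced. Nothing in the labels says whether each sample was its own animal, and the p-values then measure only how these samples vary, possibly for technical reasons.

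Bipolar, amacrine and horizontal cells are the interneurons between photoreceptors and ganglion cells. Bipolar cells carry the light signal inward, with ON types that invert it through the glutamate receptor mGluR6 and OFF types that use ionotropic glutamate receptors. Amacrine cells shape the signal in the inner retina, most of them by GABA or glycine and a few also by acetylcholine or dopamine, and horizontal cells feed back onto the photoreceptor terminals. In RNA of whole retina, fewer cells of a class and less RNA per cell cannot be told apart.

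None of the 33 genes changed between knockout and control at an adjusted p under 0.05 (edgeR quasi-likelihood test over 16861 genes), where 2.55% of all genes were called and 1.2% were called higher. At an unadjusted p under 0.05 there were 5 members (15.2%), against 21.3% of all genes tested; DESeq2 called 1 of them, Septin4 (8.47% of all genes called), and limma-voom none (2.85% of all genes called). The median log2 fold change, knockout over control, was 0.06 for bipolar, 0.24 for amacrine and 0.18 for horizontal cell genes, beside a median near 0 (-0.0011) over all genes tested. Over the 8 fits that left out 1 library, the medians ranged from -0.000815 (without knockout 4) to 0.11 for bipolar, from 0.08 (without control 3) to 0.53 (without control 4) for amacrine and from -0.038 (without control 2) to 0.30 for horizontal genes. Amacrine genes were the class whose control libraries differed most among themselves. Controls 1 to 3 were low and control 4 was high for most of them, and without control 4 the test called 8 of the 12, where it called 18.7% of all genes. Cd274, the targeted gene, which encodes PD-L1, was low in every library labelled knockout. It had 9 to 15 counts in the knockout libraries and 117 to 165 in the controls (log2 fold change -3.73, SE 0.27, adjusted p = 1.57e-05).

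The libraries held 31743404 to 36438248 counts each, so that 1 count was 0.028 to 0.0314 CPM (counts scaled to a common library size with TMM factors). The samples carried the transcripts of retina: 10 rod genes summed to 40708 to 57796 CPM per library. Lens transcripts were unequal, with the 20 lens genes summing to 2809 CPM in knockout 3, 6755 CPM in control 2 and 1918 CPM in control 3 and to 13.1 to 57.2 CPM in the other 5 libraries. Of 9 microglial genes 6 were called higher, with sums of 159 to 205 CPM in the knockout and 90.5 to 135 CPM in the control, and all 4 haemoglobin genes were called lower. For 10 rod, 9 cone, 10 ganglion cell, 8 Müller glia and 8 pigment epithelium genes the medians were 0.06, -0.07, 0.01, 0.19 and 0.75, with 1 cone and 1 ganglion cell gene called lower and 1 pigment epithelium gene called higher. Across genes, the deviation of control 4 from the mean of the 8 libraries rose with gene length (Spearman's rho 0.389 over 14629 genes, which are not independent replicates), where the other libraries had rho values of -0.265 to 0.139. With GC content the rho values were 0.248, 0.369, 0.213 and -0.00721 in knockouts 1 to 4. In controls 1 to 4 they were -0.280, -0.170, -0.177 and -0.0698. Every knockout was thus above every control, so the trend with GC content went along with genotype.

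Levels per gene length, as the deposited FPKM values (counts divided by gene length and library total), differed widely within each class. Among bipolar genes the highest were Gng13 at 167 FPKM and Pcp2 at 151 FPKM (mean of 8 libraries), whose ranges overlapped, followed at a distance by Otx2 at 51.9 FPKM. The lowest were Tacr3 at 5.98 FPKM and Nyx at 5.27 FPKM. Of the 15 pairs of neighbours in that order, 13 had overlapping ranges over the 8 libraries. Among amacrine genes Calb2 stood first at 167 FPKM, above Pax6 at 55 FPKM with no overlap, and Th was last at 0.800 FPKM. Gad1, at 33.3 FPKM, was several times above its sister gene Gad2 at 4.93 FPKM in the mean of the 8 libraries. Among horizontal genes Septin4 at 29.3 FPKM and Prox1 at 21.9 FPKM were far above the transcription factor genes Lhx1, Onecut1 and Onecut2, at 1.18, 0.723 and 0.501 FPKM. Lhx1, the marker of horizontal cells, and Gad1, that of amacrine cells, were thus both detected in all 8 libraries, with 116 to 235 and 3379 to 9025 counts.

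**Figure D1:**
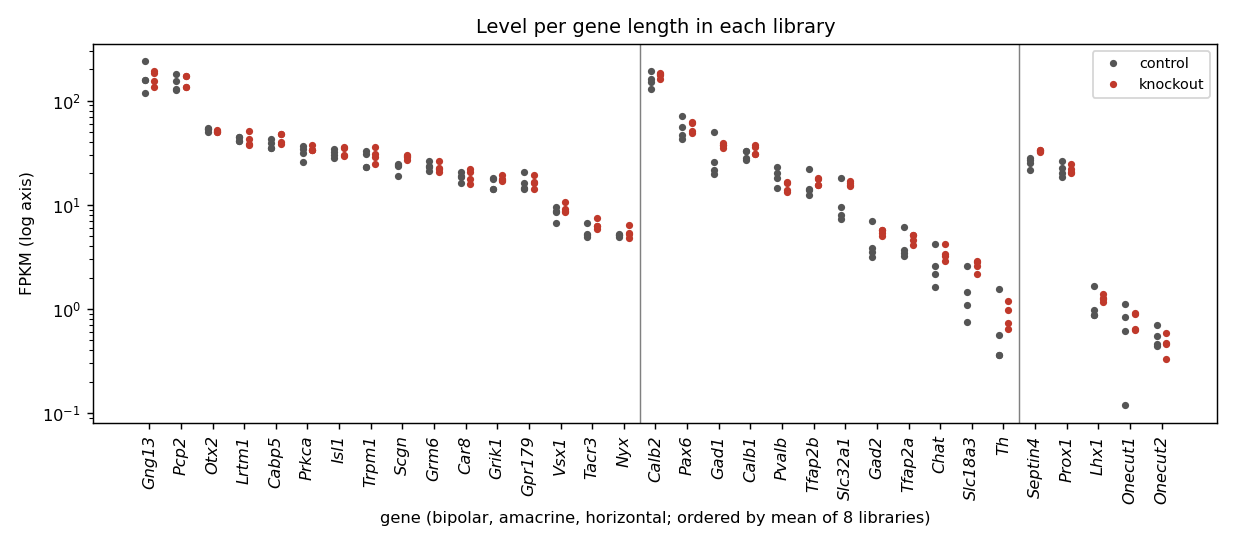
Deposited FPKM of each of the 33 genes (log axis), 1 point per library, with 4 controls in grey and 4 knockouts in red, ordered within class by the mean of the 8 libraries. Calb2, Gng13 and Pcp2 lie above 100 FPKM, and the spread between control points is widest for low amacrine genes such as Slc18a3 and Th and for Onecut1.

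Of the ON bipolar cascade, Grm6, Trpm1, Nyx and Gpr179 had log2 fold changes between -0.06 and 0.11. Grm6, which encodes mGluR6 on the dendrites of ON bipolar cells, was at 151, 135, 125 and 131 CPM in knockouts 1 to 4 and 136, 142, 128 and 158 CPM in controls 1 to 4. The groups overlapped along their whole range, with control 4 highest and knockout 3 lowest (log2 fold change -0.06, 95% interval -0.25 to 0.14, adjusted p = 0.756). Trpm1, the cation channel that the cascade closes in the dark, was at 384, 341, 284 and 321 CPM in knockouts 1 to 4 and 341, 265, 259.5 and 369 CPM in controls 1 to 4. Knockout 1 and control 4 were its highest libraries and controls 2 and 3 its lowest (log2 fold change 0.11, 95% interval -0.18 to 0.39, adjusted p = 0.667). Nyx, a leucine-rich repeat protein that holds TRPM1 at the synapse, was at 55.1 ± 7.26 CPM over the knockouts against 52.3 ± 1.8 CPM over the controls (mean ± SD of 4 libraries; log2 fold change 0.08, 95% interval -0.14 to 0.29, adjusted p = 0.681). Gpr179, an orphan receptor that anchors the regulators of the cascade's G protein, was at 156 ± 16.9 CPM over the knockouts against 157 ± 27.1 CPM over the controls (log2 fold change -0.01, 95% interval -0.27 to 0.25, adjusted p = 0.972).

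Gng13, a G protein gamma subunit of the same cells, varied more than its partners. It was at 60.5, 86.7, 73.6 and 88.6 CPM in knockouts 1 to 4 and 73.5, 114, 73.9 and 55.8 CPM in controls 1 to 4, so that control 2 was highest and control 4 lowest of all 8 libraries (log2 fold change -0.04, 95% interval -0.44 to 0.36, adjusted p = 0.931). Once the trend of every library with length and GC content was removed, Gng13 had a log2 fold change of 0.12 in place of -0.04.

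A list drawn up for this work held 11 further genes of this synapse. They were G protein subunits, RGS proteins and their partners, adhesion partners of mGluR6 and the calcium channel genes Cacna1f and Cacna2d4. Of these 11, 0 were called by edgeR, and the median log2 fold change was 0.06. An unadjusted p under 0.05 was reached by 2 (18.2%), against 21.3% of all genes tested. Gnb3, the beta subunit that works with Gng13, was at 549, 416, 511 and 397 CPM in knockouts 1 to 4 and 339, 353, 327 and 358 CPM in controls 1 to 4. All 4 knockouts lay above all 4 controls, but the value missed the threshold (log2 fold change 0.44, SE 0.11, adjusted p = 0.0541). Lrit3, a leucine-rich repeat protein that nyctalopin needs to reach the synapse, had a log2 fold change of -0.22 (adjusted p = 0.196).

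Genes of rod bipolar cells did not separate the groups either. Prkca, protein kinase C alpha and the standard rod bipolar stain, was at 379.5 ± 25.8 CPM over the knockouts against 355 ± 49.2 CPM over the controls (log2 fold change 0.09, 95% interval -0.14 to 0.33, adjusted p = 0.644). Pcp2, a regulator of G proteins shared by rod bipolar and some ON cone bipolar cells, was at 128 ± 18.6 CPM over the knockouts against 124 ± 22 CPM over the controls (log2 fold change 0.04, 95% interval -0.24 to 0.32, adjusted p = 0.888). Cabp5, a calcium-binding protein of rod and some cone bipolar cells, was at 119 ± 14.6 CPM over the knockouts against 106 ± 10.7 CPM over the controls (log2 fold change 0.17, 95% interval -0.05 to 0.40, adjusted p = 0.358). Car8, a carbonic anhydrase-related protein, had a log2 fold change of 0.01 (95% interval -0.23 to 0.26). Lrtm1, a leucine-rich repeat membrane protein, had -0.04 (-0.27 to 0.20).

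Among genes of cone bipolar cells, Scgn had the highest log2 fold change of the class without passing the threshold. Scgn encodes secretagogin, a calcium sensor of cone bipolar cells, and was at 61.6, 72.4, 70.0 and 69.9 CPM in knockouts 1 to 4 and 59.4, 58, 45.6 and 58.5 CPM in controls 1 to 4. Every knockout was above every control, the nearest pair being knockout 1 and control 1, and control 3 was lowest (log2 fold change 0.31, SE 0.10, adjusted p = 0.111). It was the only bipolar member whose groups did not overlap, and 1 of 2 such members in all (6.06%), where 11% of all genes tested had groups that did not overlap. Tacr3, the neurokinin receptor of OFF cone bipolar types, was at 21.2, 23.4, 24.1 and 28 CPM in knockouts 1 to 4 and 19.1, 18.9, 19.9 and 25.6 CPM in controls 1 to 4. Controls 1 to 3 lay below every knockout, while control 4 exceeded 3 of the 4 (log2 fold change 0.21, SE 0.13, adjusted p = 0.351). Grik1, a kainate receptor subunit of OFF cone bipolar cells, was at 106 ± 5.64 CPM over the knockouts against 96.6 ± 12.3 CPM over the controls (log2 fold change 0.13, 95% interval -0.08 to 0.34, adjusted p = 0.453). Vsx1, a homeodomain factor of cone bipolar cells, was at 32.6 ± 3.31 CPM over the knockouts against 30.1 ± 4.22 CPM over the controls (log2 fold change 0.12, 95% interval -0.14 to 0.37, adjusted p = 0.59).

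The transcription factor genes that bipolar cells share with other classes varied little. Otx2, which photoreceptors and bipolar cells both need, was at 286 ± 14.4 CPM over the knockouts against 303 ± 11.9 CPM over the controls (log2 fold change -0.08, 95% interval -0.26 to 0.09, adjusted p = 0.582). Isl1, found in ON bipolar, cholinergic amacrine and ganglion cells, was at 81.6 ± 6.74 CPM over the knockouts against 79 ± 6.13 CPM over the controls (log2 fold change 0.05, 95% interval -0.15 to 0.24, adjusted p = 0.791). For 15 of the 16 bipolar genes the whole 95% interval of the log2 fold change lay within 0.5 of 0, Scgn being the exception, and for all 16 it lay within 1. A change of more than 2-fold in either direction is thus outside the interval of each bipolar member. Of 14 other bipolar genes on the list drawn up for this work, 1 was called higher and none lower, with a median of 0.09. This was Kcng4, a potassium channel subunit, at 31.1, 33.8, 31.8 and 31.2 CPM in knockouts 1 to 4 and 19.9, 22.9, 22.7 and 26.7 CPM in controls 1 to 4 (log2 fold change 0.47, SE 0.10, adjusted p = 0.0351), with all knockouts above all controls. The call for Kcng4 ended when any library but control 4 was left out (adjusted p up to 0.117).

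**Figure D2:**
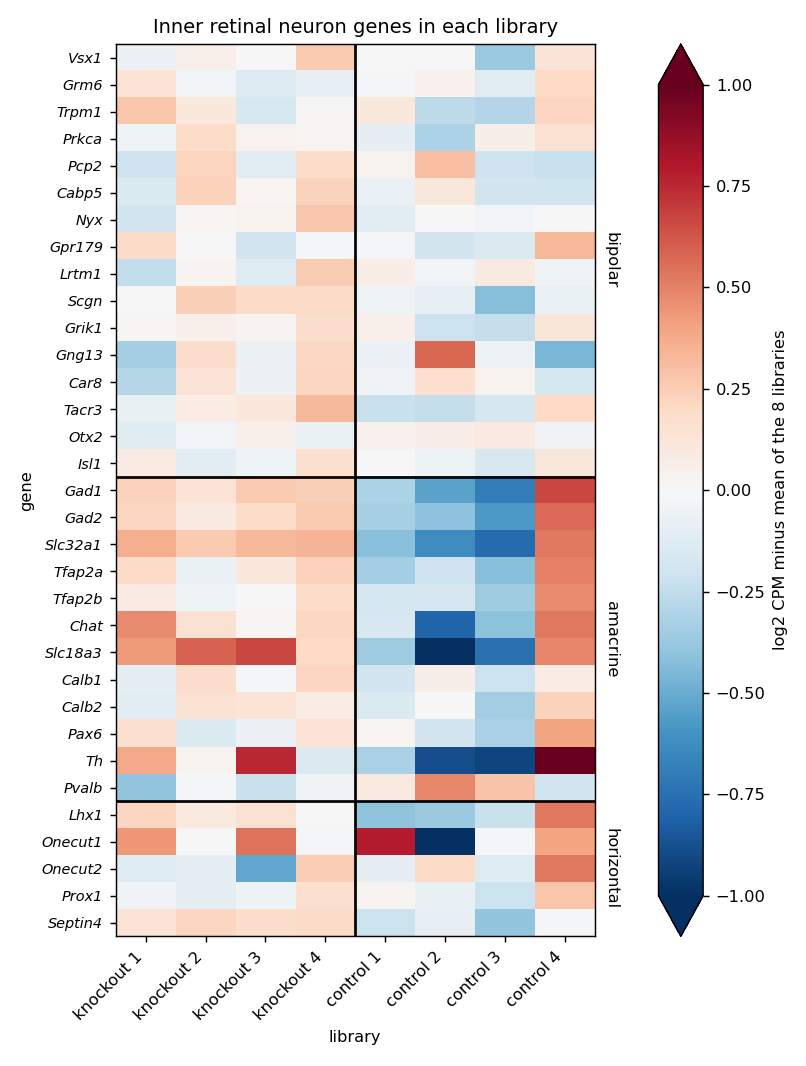
Log2 CPM of each gene minus its mean over the 8 libraries, with genes in rows by class and libraries in columns; the colour scale ends at -1 and 1. Most bipolar rows are pale (Gng13 in controls 2 and 4 is the plainest exception), while most amacrine rows are blue in controls 1 to 3 and red in control 4 and in the knockouts.

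The GABAergic genes of amacrine cells were low in controls 1 to 3 and high in control 4. Gad1 (Entrez gene 14415, chromosome 2, 70561303 to 70602014 in RefSeq's GRCm38.p6), the larger of the 2 glutamic acid decarboxylases that make GABA, was at 197, 185, 201 and 198 CPM in knockouts 1 to 4 and 135, 116, 104 and 267 CPM in controls 1 to 4. The knockouts lay within a narrow band, above controls 1 to 3 and below control 4 (log2 fold change 0.33, SE 0.23, adjusted p = 0.426). Gad2 (chromosome 2, 22621015 to 22693877), the other decarboxylase, was at 47.9, 43.8, 46.8 and 49.3 CPM in knockouts 1 to 4 and 32.7, 30.9, 27.7 and 60.9 CPM in controls 1 to 4. The order of the controls was that of Gad1, with control 3 lowest and control 4 highest (log2 fold change 0.30, SE 0.20, adjusted p = 0.394). Slc32a1 (chromosome 2, 158607260 to 158615747), the transporter that loads GABA and glycine into vesicles, was at 66.5, 61.8, 64.7 and 65.4 CPM in knockouts 1 to 4 and 38.7, 33.3, 30.2 and 74.3 CPM in controls 1 to 4. Here too every knockout was above controls 1 to 3 and below control 4 (log2 fold change 0.55, SE 0.22, adjusted p = 0.181; unadjusted p = 0.0279). The 95% intervals of the log2 fold change were -0.17 to 0.83 for Gad1, -0.13 to 0.73 for Gad2 and 0.07 to 1.03 for Slc32a1. All 3 genes lie on chromosome 2, far from each other.

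Without control 4, the highest control for each, all 3 were called higher in the knockout by edgeR, in a fit that called 10.5% of all genes higher. The log2 fold change was then 0.72 for Gad1 (adjusted p = 0.000406), 0.63 for Gad2 (adjusted p = 0.00067) and 0.92 for Slc32a1 (adjusted p = 7.50e-05). Leaving out any other library gave no call for any amacrine gene. The fold change of Gad1 was between 0.17 and 0.72 over the 8 fits that left out 1 library, that of Gad2 between 0.17 and 0.63 and that of Slc32a1 between 0.40 and 0.92.

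**Figure D3:**
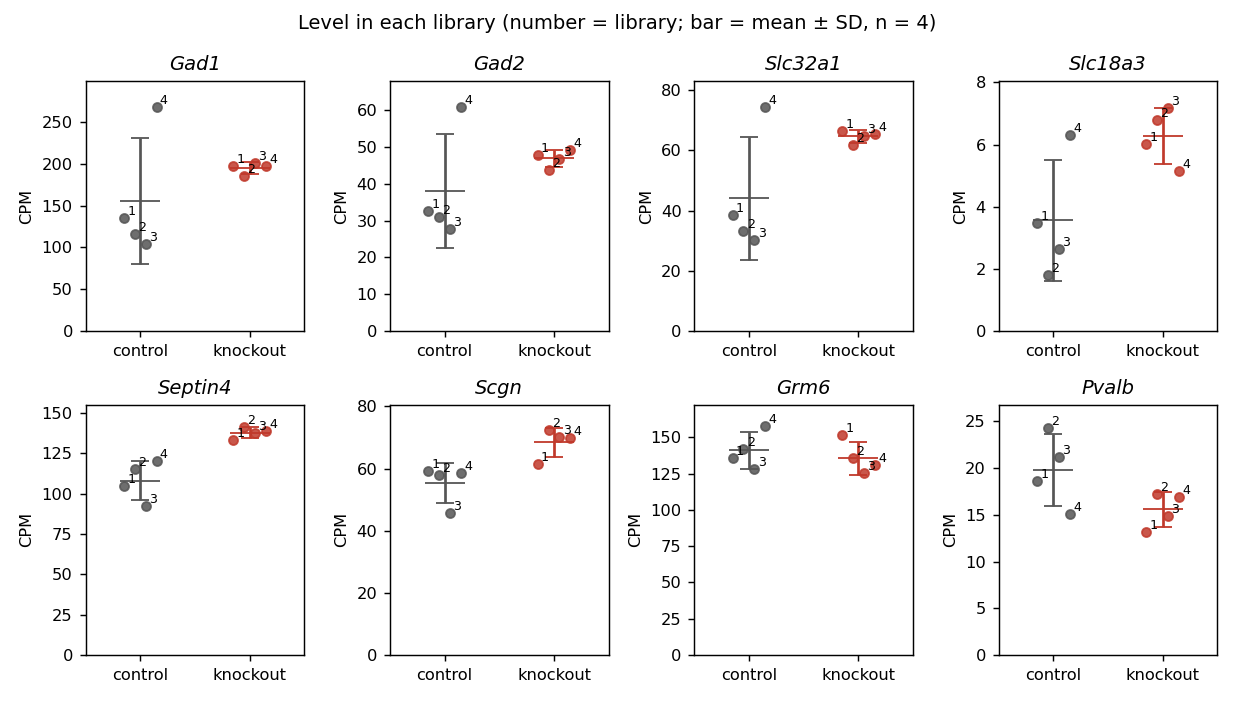
CPM of 8 genes in each library, with the library number beside each point and bars for the mean ± SD (n = 4 each). For Gad1, Gad2 and Slc32a1 control 4 lies above all knockouts and controls 1 to 3 below them, whereas Septin4 and Scgn have every knockout above every control.

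Cholinergic amacrine genes had a similar order of libraries at lower levels. Chat, choline acetyltransferase, was at 11.4, 9.1, 8.26 and 9.44 CPM in knockouts 1 to 4 and 7.31, 4.68, 6.13 and 11.8 CPM in controls 1 to 4. Controls 1 to 3 lay below every knockout and control 4 above every knockout (log2 fold change 0.35, SE 0.24, adjusted p = 0.41). Slc18a3, the vesicular acetylcholine transporter, was at 6.02, 6.78, 7.17 and 5.15 CPM in knockouts 1 to 4 and 3.48, 1.82, 2.65 and 6.3 CPM in controls 1 to 4. Control 4 lay within the range of the knockouts, and controls 1 to 3 below it (log2 fold change 0.81, SE 0.31, adjusted p = 0.157; unadjusted p = 0.0198). Slc18a3 is the member with the largest positive fold change, at 58 to 256 counts per library. It lies within Chat on the same strand (chromosome 14, 32462437 to 32464850, inside chromosome 14, 32408203 to 32465909), so reads of the locus may be shared and the pair is not independent. Without control 4, where 10.5% of all genes were called higher, the values were 0.66 for Chat (adjusted p = 0.0188) and 1.24 for Slc18a3 (adjusted p = 0.00336). Th, tyrosine hydroxylase of dopaminergic amacrine cells, had 59, 45, 78 and 40 counts in knockouts 1 to 4 and 32, 21, 21 and 95 counts in controls 1 to 4. Control 4 was the highest library and controls 2 and 3 the lowest, and at these counts the interval was wide (log2 fold change 0.29, 95% interval -0.70 to 1.28, adjusted p = 0.744).

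The AP-2 transcription factor genes of amacrine cells had smaller differences between the groups. Tfap2a was at 32, 26.8, 30.2 and 32.9 CPM in knockouts 1 to 4 and 22.1, 24.4, 20.9 and 39.9 CPM in controls 1 to 4 (log2 fold change 0.18, SE 0.18, adjusted p = 0.571). Tfap2b was at 156, 143, 148 and 168 CPM in knockouts 1 to 4 and 130.2, 131, 115 and 204 CPM in controls 1 to 4 (log2 fold change 0.08, SE 0.15, adjusted p = 0.789). In both, control 4 was the highest of the 8 libraries and controls 1 to 3 were below every knockout. Without control 4, where 10.5% of all genes were called higher, they had log2 fold changes of 0.44 (adjusted p = 0.0099) and 0.29 (adjusted p = 0.0315).

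Of the members that amacrine cells share with other neurons, 3 differed little between the groups and Pvalb had lower values in the knockouts than in controls 1 to 3. Pax6, a homeodomain factor of amacrine, horizontal and ganglion cells, was at 264 ± 27.7 CPM over the knockouts against 259 ± 59.1 CPM over the controls (log2 fold change 0.03, 95% interval -0.28 to 0.34, adjusted p = 0.927). Calb1, calbindin, which in the mouse also marks horizontal cells, was at 96.2 ± 9.85 CPM over the knockouts against 87.4 ± 9.49 CPM over the controls (log2 fold change 0.14, 95% interval -0.08 to 0.35, adjusted p = 0.447). Calb2, calretinin of amacrine and ganglion cells, was at 224, 267, 265 and 253 CPM in knockouts 1 to 4 and 218, 239, 189 and 283 CPM in controls 1 to 4 (log2 fold change 0.12, 95% interval -0.14 to 0.38, adjusted p = 0.582). Pvalb, parvalbumin, a calcium buffer that ganglion cells also express, was the only amacrine member with a negative value. It was at 13.2, 17.3, 14.9 and 16.9 CPM in knockouts 1 to 4 and 18.6, 24.3, 21.2 and 15.1 CPM in controls 1 to 4, with controls 1 to 3 above every knockout and control 4 among the knockouts (log2 fold change -0.35, SE 0.15, adjusted p = 0.209). Without control 4 its log2 fold change was -0.46 (adjusted p = 0.0229), where 8.18% of all genes were called lower.

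Control 4 was the highest control for 11 of the 12 amacrine genes, against 33.1% of all genes tested, and exceeded every knockout for 9 of the 12, against 24.7% of all genes. For the bipolar genes the counts were 8 of 16 and 2 of 16, and for the horizontal genes 4 of 5 and 3 of 5. The pattern was not particular to amacrine genes. Control 4 was the highest control for 8 of 10 ganglion cell, 13 of 14 GABA and glycine receptor and 15 of 17 glutamate receptor genes. It exceeded every knockout for 8, 8 and 12 of them. For 10 rod, 9 cone and 9 microglial genes it was the highest control for 5, 3 and 0 and exceeded every knockout for 0, 2 and 0. The median coefficient of variation of the amacrine genes (SD over mean of the CPM) was 9.53% over the 4 knockouts and 36.7% over the 4 controls, and it was larger in the controls for 12 of 12. For the bipolar genes it was 11.3% and 12.2%, larger in the controls for 10 of 16, and for the horizontal genes 7.99% and 22.4%, larger for 5 of 5. Over 10497 genes above 10 CPM the medians were 8.49% and 10.7%, and the control value was the larger for 63.5%.

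**Figure D4:**
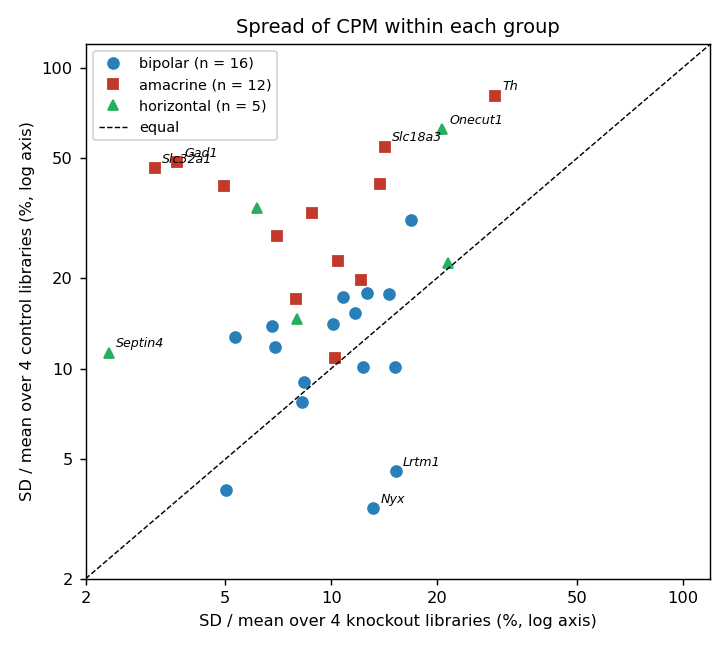
Coefficient of variation of CPM over the 4 controls against that over the 4 knockouts (both log axes), 1 point per gene, with the dashed line where both are equal. All 12 amacrine and all 5 horizontal genes lie above the line, and bipolar genes lie on both sides of it.

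Without control 4, edgeR called 10 of the 33 members, 9 higher and 1 lower, where 18.7% of all genes were called, 10.5% higher and 8.18% lower. Control 4 stood out by the values of these same genes, so calls made without it are not separate support for a change. The 12 amacrine genes gave 8 of these calls, 7 higher (Gad1, Gad2, Slc32a1, Tfap2a, Tfap2b, Chat and Slc18a3) and 1 lower (Pvalb). Scgn among 16 bipolar and Septin4 among 5 horizontal genes gave the others. In that fit the median was 0.53 for amacrine, 0.11 for bipolar and 0.30 for horizontal genes, and -0.0047 over all genes. After correction of every library for its trend with length and GC content, an alternative added after the data had been seen, 11 members were called without control 4 (20.2% of all genes in that fit), the same 10 and Calb1. With all 8 libraries the corrected fit called none, against 1.74% of all genes, and the amacrine median was 0.19. The highest amacrine log2 fold change was then 0.65, in place of 0.81 before correction. Slc18a3 and Slc32a1 had the highest GC content of the members, at 61.2% and 61.9%.

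Lens transcript and amacrine genes were set side by side in each library. Of the 3 libraries high in lens transcript, controls 2 and 3 had the lowest Gad1 values of all 8, at 116 and 104 CPM, and knockout 3 had 201 CPM, the highest of the knockouts. Of the 5 low in lens transcript, control 1 had 135 CPM of Gad1, knockouts 1, 2 and 4 had 185 to 198 CPM and control 4 had 267 CPM. When knockout 3 and controls 2 and 3 were left out together, which leaves 3 knockouts and controls 1 and 4, the amacrine median was -0.01, that of horizontal genes -0.14 and that of bipolar genes 0.03, and none of the 33 was called, in a fit that called only 15 of 17351 genes (0.0865%). With the lens sum as a covariate and all 8 libraries, the amacrine median was 0.16 and no member was called, against 1.68% of all genes. The sum of the 12 amacrine genes was 1099 to 1191 CPM in the knockouts and 949, 928, 803 and 1402 CPM in controls 1 to 4. The 10 ganglion cell genes summed to 784 to 880 CPM in the knockouts and to 910, 946, 777 and 1139 CPM in controls 1 to 4. Control 4 was the highest control for 8 of the 10 and exceeded every knockout for 8 of the 10. Their median deviation (log2 CPM minus the mean of the 8 libraries) was -0.23, -0.26, -0.31 and 0.59 in controls 1 to 4. In the knockouts it was -0.005 to 0.15. For the amacrine genes the median deviation was -0.25, -0.31, -0.42 and 0.50 in controls 1 to 4 and 0.11 to 0.20 in the knockouts. The part of the ganglion cell transcripts in the amacrine values was not tested.

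**Figure D5:**
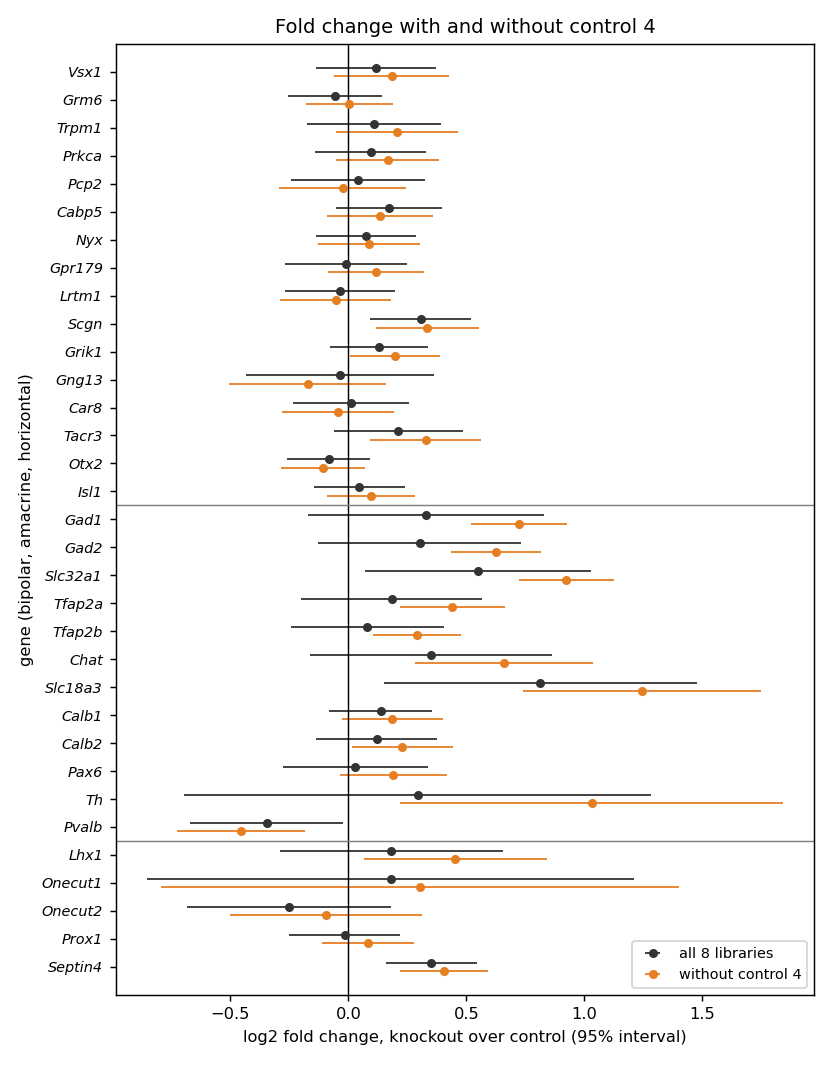
Log2 fold change of each gene, knockout over control, with its 95% interval, from the fit with all 8 libraries (black) and without control 4 (orange). The orange points of Gad1, Gad2, Slc32a1, Chat and Slc18a3 lie to the right of the black ones with shorter intervals, while bipolar points stay near the black ones.

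Of 21 other amacrine genes tested (22 listed), 0 were called by edgeR and the median was 0.20. An unadjusted p under 0.05 was reached by 4 (19%), all of them higher, against 21.3% of all genes tested. The smallest p-values belonged to Sst, the neuropeptide somatostatin, and Ppp1r17, a phosphatase inhibitor. Sst was at 4.38, 4.11, 5.77 and 3.35 CPM in knockouts 1 to 4 and 2.51, 3.2, 2.03 and 2.93 CPM in controls 1 to 4, with every knockout above every control (log2 fold change 0.72, SE 0.23, adjusted p = 0.104), and Ppp1r17 had a log2 fold change of 0.36 (adjusted p = 0.106), also without overlap. Without control 4, 9 of the 21 were called higher and none lower, where 10.5% of all genes were called higher and 8.18% lower. Among 14 subunits of GABA and glycine receptors, on which amacrine and horizontal transmitter acts, 1 was called higher, none lower and the median was 0.09. Gabra2, the alpha2 subunit of the GABA-A receptor, was at 35.7, 26.6, 32.3 and 38 CPM in knockouts 1 to 4 and 13.7, 11.6, 13.2 and 21.1 CPM in controls 1 to 4 (log2 fold change 1.15, SE 0.18, adjusted p = 0.00631). All knockouts were above all controls, control 4 being the highest control, and the call held in each of the 8 fits that left out 1 library (adjusted p up to 0.0297). Without the 3 libraries high in lens transcripts none of the 14 was called, in a fit that called only 15 of 17351 genes. Of 17 glutamate receptor genes 0 were called by edgeR, and the median was 0.17. An unadjusted p under 0.05 was reached by 2 (11.8%, against 21.3% of all genes tested), Gria1 at 0.39 and Grm4 at 0.62. Without control 4, 7 were called higher (10.5% of all genes).

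Among horizontal cell genes Septin4 came closest to the threshold of all 33 members. Septin4, a filament-forming GTPase that is abundant in mouse horizontal cells, was at 134, 141, 138 and 139 CPM in knockouts 1 to 4 and 105, 115, 92.5 and 120.1 CPM in controls 1 to 4. All knockouts lay above all controls, and the knockouts lay close together (log2 fold change 0.35, SE 0.09, adjusted p = 0.0568). The 95% interval of its log2 fold change was 0.16 to 0.55. It passed with robust dispersions (adjusted p = 0.0481), with DESeq2 (adjusted p = 0.0136) and without control 4 (adjusted p = 0.00608), where 18.7% of all genes were called. It missed in each of the other 7 fits that left out 1 library (adjusted p up to 0.167).

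Of the transcription factor genes of horizontal cells, Lhx1, Onecut1 and Onecut2 were low. Their coefficients of variation over the controls were 34.3%, 62.4% and 22.4%, against 14.6% for Prox1. Lhx1 had 198, 178, 191 and 169 counts in knockouts 1 to 4 and 116, 118, 134 and 235 counts in controls 1 to 4. Control 4 was highest and the other controls lowest, as for the amacrine genes (log2 fold change 0.18, 95% interval -0.29 to 0.66, adjusted p = 0.66). Onecut1 had 56, 40, 61 and 40 counts in knockouts 1 to 4 and 65, 7, 37 and 52 counts in controls 1 to 4, with control 2 far below the other libraries (log2 fold change 0.18, 95% interval -0.85 to 1.21, adjusted p = 0.859). Without control 2 its log2 fold change was -0.16. Onecut2, a close relative of Onecut1, was at 6.37 ± 1.37 CPM over the knockouts against 7.57 ± 1.69 CPM over the controls (log2 fold change -0.25, 95% interval -0.68 to 0.18, adjusted p = 0.487). Prox1, which also marks AII amacrine cells and some bipolar cells, was at 187 ± 14.9 CPM over the knockouts against 189 ± 27.7 CPM over the controls (log2 fold change -0.02, 95% interval -0.25 to 0.22, adjusted p = 0.948). Intervals within 1 of 0 held for 4 of the 5 horizontal genes and for 9 of the 12 amacrine genes, so for Onecut1, Slc32a1, Slc18a3 and Th a 2-fold difference is not outside the interval. Of 3 other horizontal genes 0 were called by edgeR or had an unadjusted p under 0.05; Gja10, the gap junction protein of horizontal cells, had a log2 fold change of 0.53 (adjusted p = 0.279) and Slc4a3, an anion exchanger, one of 0.31 (adjusted p = 0.238). Without control 4, 2 of the 3 were called higher (10.5% of all genes).

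Promoters of members that varied together or held steady are shown to set their sequences side by side. In RefSeq coordinates (GRCm38.p6), 43 promoters (windows around the transcription start) of 28 of the 33 genes were searched for 5 short motifs on both strands. No promoter of Car8, Grik1, Calb1, Calb2 or Onecut2 was searched, so the counts for members leave these genes out. TAATCC, the core that OTX2 and its relative CRX bind, was in 5 of 22 promoters of bipolar genes, 1 of 13 of amacrine and 0 of 8 of horizontal genes, and in 7.06% of 32851 promoters. The 5 bipolar genes were Cabp5, Trpm1, Isl1, Lrtm1 and Otx2. Promoters of Trpm1 (chr7:64153585-64153884, plus strand) and Cabp5 (chr7:13397905-13398204, plus strand), which hold 1 and 2 matches, are printed 5′ to 3′ with the motif, or its reverse complement GGATTA, in capitals.
Trpm1: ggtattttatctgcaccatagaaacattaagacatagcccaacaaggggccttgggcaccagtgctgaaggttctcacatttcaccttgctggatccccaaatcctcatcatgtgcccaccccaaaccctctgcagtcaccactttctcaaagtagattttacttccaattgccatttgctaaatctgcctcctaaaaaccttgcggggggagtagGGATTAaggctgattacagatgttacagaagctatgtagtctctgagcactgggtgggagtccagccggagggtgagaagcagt
Cabp5: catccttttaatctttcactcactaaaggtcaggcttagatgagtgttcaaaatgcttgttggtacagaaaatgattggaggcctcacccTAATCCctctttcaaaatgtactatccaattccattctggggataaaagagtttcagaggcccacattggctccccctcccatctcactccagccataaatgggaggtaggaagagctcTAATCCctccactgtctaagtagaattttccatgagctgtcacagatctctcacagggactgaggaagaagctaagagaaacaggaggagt

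GCCNNNGGC, the core bound by AP-2 factors such as the products of Tfap2a and Tfap2b, was in 5 of 13 promoters of amacrine genes (of Gad2, Pax6, Slc18a3 and Pvalb), 5 of 22 of bipolar and 3 of 8 of horizontal genes, and in 16.6% of all promoters. Matches can overlap, as they do in Slc18a3, and a match is a run of letters, not a measured site. The GABAergic trio that varied together differed in it. The promoter of Gad2 (chr2:22622077-22622376, plus strand) held 2 matches, shown in capitals, while those of Gad1 (chr2:70561879-70562178, plus strand) and Slc32a1 (chr2:158610508-158610807, plus strand) held none in this window; Gad1 held 1 TAATCC match, not marked here.
Gad2: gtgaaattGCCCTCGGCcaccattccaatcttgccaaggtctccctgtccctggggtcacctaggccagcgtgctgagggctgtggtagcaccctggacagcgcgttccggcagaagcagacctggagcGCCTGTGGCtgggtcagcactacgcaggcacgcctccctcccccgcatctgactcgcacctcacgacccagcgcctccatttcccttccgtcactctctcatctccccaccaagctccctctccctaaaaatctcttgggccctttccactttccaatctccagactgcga
Gad1: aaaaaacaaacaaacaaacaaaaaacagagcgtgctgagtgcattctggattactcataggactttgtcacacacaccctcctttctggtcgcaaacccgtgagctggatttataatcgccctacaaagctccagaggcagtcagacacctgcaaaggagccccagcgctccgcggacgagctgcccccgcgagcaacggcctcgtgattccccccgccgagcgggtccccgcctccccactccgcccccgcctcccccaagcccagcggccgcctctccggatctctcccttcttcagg
Slc32a1: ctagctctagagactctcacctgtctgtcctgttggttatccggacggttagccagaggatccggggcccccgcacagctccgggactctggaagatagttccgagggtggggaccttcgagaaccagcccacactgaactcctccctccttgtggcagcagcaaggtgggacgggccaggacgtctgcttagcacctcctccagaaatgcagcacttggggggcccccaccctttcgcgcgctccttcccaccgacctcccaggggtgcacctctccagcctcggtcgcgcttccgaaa

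The other 3 motifs were counted in the same way. The homeodomain core TAATTA was in 4 of 43 promoters (5.29% of all), the E-box CAGCTG in 7 (16.3% of all) and ATCAAT, a core of the Onecut factors, in 1 (7.54% of all), that of Tfap2b. Each of these but the Onecut core reads the same on both strands, as the AP-2 core does, and was counted once. Several genes have more than 1 promoter in the table and these can overlap, as those of Septin4 and Pcp2 do.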

How the data were processed

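RNA of 8 retina libraries was sequenced. Per the submitters' processing notes, reads were processed with fastp, HISAT2 and HTSeq on mm10; the sources used here state no versions, annotation or strand setting. The authors deposited raw counts per gene and FPKM, which equal count over total count and gene length. Counts were scaled by TMM, filtered (minimum count 10, minimum total 15) and tested with edgeR 4.0.16 (quasi-likelihood test, R 4.3.3), knockout against control without further terms, with Benjamini-Hochberg adjustment over all genes and a threshold of 0.05. Intervals are 95% intervals of the model; CPM are counts over the scaled library size. DESeq2 1.42.0 and limma 3.58.1 were alternatives, as were other scalings, filters and left-out libraries; FPKM were tested as log2(FPKM + 0.1) and log2(FPKM + 1). The procedure was tested on simulated data. Members and gene lists were chosen with earlier results of these data known. All members are named. From each other list of bipolar, amacrine, horizontal and receptor genes, those past the threshold (at most 4), or the 2 with the smallest p, are named. The lists of other cell types, lens and haemoglobin are given without gene names. No replicate libraries agreed within sampling noise (smallest chi-square per degree of freedom 20.2). Counting error is small beside the spread between libraries except for genes under 100 counts.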

Additional observations from a re-analysis of the deposited data

Results flagged for a closer look

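In 5 of 66 groups of 4 values, 1 library lay far from the other 3 by Dixon's test; chance gives about 1 in 20 groups, and the genes are not independent. All 5 were in controls and 4 were control 4. In control 4, Gad2 was at 60.9 CPM (next control 32.7 CPM), Th at 2.81 CPM (next 1.00 CPM), Lhx1 at 6.95 CPM (next 4.13 CPM) and Tacr3 at 25.6 CPM (next 19.9 CPM). In control 3, Scgn was at 45.6 CPM, below the next control at 58.0 CPM.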

How the results depend on the processing

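With all 8 libraries the edgeR test called no member; over the 8 fits that left out 1 library 0 to 1 bipolar, 0 to 8 amacrine and 0 to 1 horizontal genes were called, each upper value without control 4, where 18.7% of all genes were called. With GC content and length also corrected and control 4 left out (chosen after the data had been seen, as was the correction itself), 1, 9 and 1 were called. With all 8 libraries, robust dispersions and DESeq2 each called 1 horizontal gene, Septin4. Across members and settings, 23 values passed the threshold only under an alternative and 802 stayed on their side; with no member called at first, no called value could reverse. The median of the amacrine genes was 0.08 to 0.53 and that of the bipolar genes -0.000815 to 0.11 over the fits that left out 1 library. The median of the horizontal genes was -0.038 to 0.30 over the fits that left out 1 library and -0.14 without the 3 libraries high in lens transcripts. Over all genes, 430 were called, against 1320 with DESeq2, 690 without the filter on low counts, 228 on log2(FPKM + 1), 283 with the lens sum as covariate, 254 with the GC and length correction, 15 without the 3 lens-high libraries, 2985 with the correction and without control 4, and 108 to 3209 over the fits that left out 1 library; the cause was not tested. Knockouts and controls share replicate numbers, but same-numbered libraries had correlations of -0.04 to 0.21 and 1 of 4 knockouts correlated best with its own number, so the numbers were not taken as pairs. The replicate block called 228 genes (210 with the GC and length correction) and no member. Depth limits Th and Onecut1, with under 100 counts in every library.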
